A study of Mus musculus with 4 samples.

Results

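Resting and lymph node-homing T cells share a set of receptors and transcription factors, and 9 of those genes were followed here in regulatory T (Treg) cells of mouse visceral adipose tissue (VAT): Ccr7, S1pr1, Klf2, Klf3, Tcf7, Lef1, Satb1, Bach2 and Foxo1. The genes were taken by symbol from the 32285 gene rows of the deposited single-cell matrices. Their unique molecular identifiers (UMIs), each standing for 1 captured RNA molecule, were summed over the cells of each of 4 conditions. KO cells came from 4 male mice with Foxp3YFP-cre and Srebf2flox/flox, and WT cells from 4 male mice with Foxp3YFP-cre and Srebf2WT/WT, all aged 25 weeks. HFD cells came from 5 male Foxp3thy1.1 PpargTdt mice given a high fat diet for 22 weeks, and NCD cells from 5 male mice of the same genotype on normal chow, all aged 23 to 27 weeks. Cre is driven by Foxp3 in KO and WT mice alike, and both diet groups carry the same Foxp3thy1.1 and PpargTdt alleles. Sorted live CD3+ CD4+ Foxp3+ cells of KO and WT mice were mixed in a 1st droplet run (Srebf2 pool) and those of HFD and NCD mice in a 2nd run (diet pool), with 1 antibody-borne hashtag per condition. The mice of a condition share a hashtag and cannot be told apart, so each condition is a single sample; no difference has a replicate check, none was tested, and every interval below covers counting error only.

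CCR7 is the chemokine receptor that brings T cells into lymph nodes, and S1PR1, a receptor for sphingosine 1-phosphate, lets them leave again. FOXO1, a forkhead factor held out of the nucleus by PI3K and AKT signalling, is known in T cells to drive Klf2 and Ccr7, and KLF2 in turn drives S1pr1. TCF1 (gene Tcf7) and LEF1 are DNA-binding factors of naive and memory T cells, SATB1 organises chromatin in developing T cells, and BACH2 holds back effector genes. In fat, many Treg cells carry ST2, the interleukin-33 receptor encoded by Il1rl1, together with an effector program, and resting Treg cells with little ST2 are found beside them.

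The deposited counts come from tags at the 5′ end of transcripts, so the stretch around the transcript start is the part of each gene nearest to what was counted. In RefSeq (build GRCm38.p6) the receptor genes lie with Ccr7 at chr11:99144199-99155077 and S1pr1 at chr3:115710433-115715055. The factors lie with Klf2 at chr8:72319062-72321654, Klf3 at chr5:64803521-64832901, Tcf7 at chr11:52246527-52283383, Lef1 at chr3:131110297-131224357, Satb1 at chr17:51736187-51833290, Bach2 at chr4:32238413-32586109 and Foxo1 at chr3:52268337-52350109. RefSeq windows of 300 bases (250 before and 50 after a transcript start, same build) were matched for 7 of the 9 genes, with 15 windows in all. Each window was searched on both strands for GTAAACA (a forkhead motif that FOXO1 can bind), CTTTGA (TCF/LEF), CCACCC (KLF), TGANTCA (BACH and AP-1) and TAAATTTA (the core of a MEF2 motif). A selection of the matches for factors among the 9 genes and the rarest match are shown, with the motif in capitals. They are printed 5′ to 3′ on the strand of the gene, and a match to the other strand appears as its reverse complement:
Klf2, MEF2 core, chr8:72318934-72318963 (+): tataccgcggcTAAATTTAggctgagcccg
Klf2, KLF, chr8:72319031-72319060 (+): cctataaggcctGGGTGGgccgggccacag
Klf3, KLF, chr5:64803460-64803489 (+): tccctgaccctcCCACCCcggctcccagcc
Tcf7, FOXO, chr11:52282576-52282605 (-): cctttataggaGTAAACAgacccccgccat
Lef1, TCF/LEF, chr3:131156162-131156191 (+): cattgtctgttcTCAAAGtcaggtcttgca
Bach2, TCF/LEF, chr4:32417330-32417359 (+): actgtgttgttcTCAAAGttgagtagagtt
The KLF letters were also found in windows of Tcf7, Lef1 and Satb1, and the window of Foxo1 held none of the motifs. Further KLF matches in Klf3 and a further TCF/LEF match in Lef1 are not printed. The BACH and AP-1 letters were found in none of the 15 windows. Of 32851 such windows in the mouse table, 31.5% hold the KLF letters, 16% the TCF/LEF letters, 7.81% the BACH and AP-1 letters, 3.65% the forkhead letters and 0.545% the MEF2 core. A match is a string of letters and not a measured binding site. The printed Lef1 and Bach2 windows lie at transcript starts well inside these genes, and whether the counted tags come from those starts was not tested.

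After the filters, 3956 KO, 3490 WT, 4512 HFD and 4938 NCD cells remained, with 16444262, 14010241, 18543516 and 22200627 UMIs and medians of 3640.5, 3589.5, 3193.5 and 3989 UMIs per cell. Both pools shared 135 cell barcodes, 1.49% of the Srebf2 pool and 1.18% of the diet pool. The sort was checked against marker genes: CD3 and Treg markers were present in all 4 conditions, and a Foxp3 UMI was found in 56.7% of KO, 55.4% of WT, 40.5% of HFD and 53.7% of NCD cells. Srebf2, the deleted gene, stood at 3.95 UMIs per 1000000 UMIs of its condition (CPM) in KO cells, against 65.7 CPM in WT cells. Of 9 Treg markers, 0 passed 1.5-fold between KO and WT cells. In HFD cells 2 were higher and 2 lower, beside 12.4% and 9.4% of all genes. Izumo1r was at 462 CPM in HFD and 79.0 CPM in NCD cells, and Nrp1 at 254 and 108 CPM in the same order. Il2ra was at 193 and 656 CPM and Capg at 346 and 652 CPM, again in that order. The B cell list (6 genes) summed to 10.0 to 14.9 CPM and the macrophage list (6 genes) to 3.65 to 4.37 CPM, with Cd79a and Lyz2 at 0 by the filter.

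Most of the 9 genes were higher in KO than in WT cells, and nearly all of them were far higher in HFD than in NCD cells. By a threshold of 1.5-fold, set on size alone with no test behind it, 5 of 9 were higher in KO cells (Ccr7, Klf3, Tcf7, Satb1 and Bach2) and 0 lower. Over all 9822 genes that reached 5 CPM in KO or WT cells, 1.77% were higher in KO cells by the same threshold and 1.32% lower. In the diet pool 8 of 9 were higher in HFD cells, with Klf2 as the exception, and 0 lower, beside 12.4% higher and 9.4% lower over 10024 genes. The median log2 ratio of the 9 genes was 0.64 for KO over WT and 1.51 for HFD over NCD, while that of all tested genes was 0.00448 and 0.0827. The sums cannot tell more cells with a gene from more RNA of it per cell. The share of cells with a UMI is therefore given with the levels of all genes but Lef1 and Bach2.

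**Figure D1:**
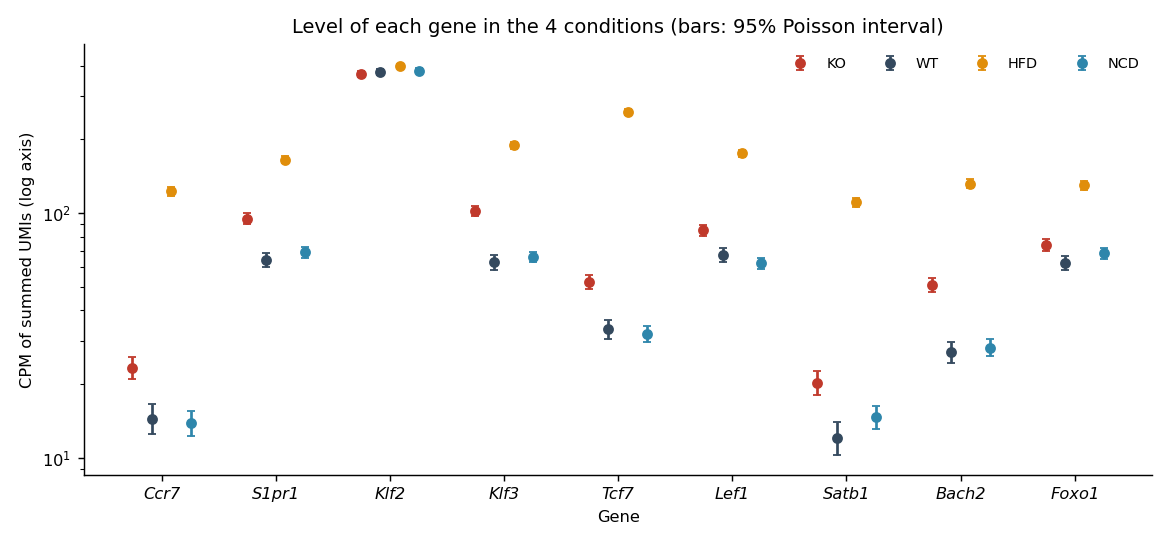
Level of each of the 9 genes in KO, WT, HFD and NCD cells as CPM of summed UMIs on a log axis, with 95% Poisson intervals as bars. HFD is the highest condition for all 9 genes, KO lies between HFD and the controls for 8 of them, and the 4 values of Klf2 lie between 369 and 398 CPM.

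Ccr7, the lymph node entry receptor, stood at 23.4 CPM in KO and 14.4 CPM in WT cells, a log2 ratio of 0.69 (0.45 to 0.95). It stood at 123 CPM in HFD and 13.8 CPM in NCD cells, a log2 ratio of 3.15 (2.97 to 3.32). HFD was thus set far apart, KO came next, and WT and NCD did not differ beyond counting error. Few cells carried Ccr7 outside HFD: a UMI was found in 3.74% of KO and 2.03% of WT cells, and in 19.7% of HFD and 2.69% of NCD cells. In KO and WT its UMIs were concentrated, with 33.9% of those in KO cells and 47.0% of those in WT cells lying in the 10 cells that held most of them, against 7.83% in HFD and 39.4% in NCD cells. The ratio of KO over WT also rests on the filter for other cell types, since it was -0.062 when cells with Cd79a, Lyz2 or Cd8a were kept. The HFD over NCD ratio was 2.26 with those cells kept. Droplets with B cell markers, which that filter removes, held Ccr7 at 306 CPM (149 droplets, Srebf2 pool) and 196 CPM (432 droplets, diet pool).

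S1pr1, the egress receptor, stood at 94.9 CPM in KO and 64.2 CPM in WT cells (log2 ratio 0.56, 0.44 to 0.68), just under the 1.5-fold line. It stood at 165 CPM in HFD and 69.1 CPM in NCD cells (1.26, 1.17 to 1.35). The order was HFD, KO, NCD and WT, with the last pair within counting error. Unlike Ccr7, S1pr1 was spread over many cells, with a UMI in 22.5% of KO, 16.1% of WT, 37.0% of HFD and 21.1% of NCD cells. CD69, which pulls S1PR1 from the cell surface and so keeps T cells in tissue, ran the other way at the level of RNA. Cd69 was at 374 CPM in KO and 465 CPM in WT cells (-0.32), and at 266 CPM in HFD and 764 CPM in NCD cells (-1.52).

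Klf2 was the one gene of the 9 whose level was nearly even. It stood at 369 CPM in KO and 376 CPM in WT cells, a log2 ratio of -0.03 (-0.08 to 0.03), and at 398 CPM in HFD and 382 CPM in NCD cells, a log2 ratio of 0.06 (0.02 to 0.11). A UMI of it was found in 46.3% of KO, 46.1% of WT, 50.2% of HFD and 50.7% of NCD cells. The promoter stretch with the MEF2 core, printed above, belongs to this gene. Its sign between HFD and NCD turned to -0.02 when ratios were centred on the median of all genes, so no direction is given for it.

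Klf3 encodes a KLF family repressor that in other blood cells is itself driven by another KLF factor. It stood at 102 CPM in KO and 62.8 CPM in WT cells (log2 ratio 0.70, 0.58 to 0.82), and at 189 CPM in HFD and 66.1 CPM in NCD cells (1.51, 1.42 to 1.60). With cells holding Cd79a, Lyz2 or Cd8a kept, the Klf3 ratio was 0.57 for KO over WT, under the 1.5-fold line, and 1.23 for HFD over NCD. Klf3 and Klf2 thus parted in both pools, with Klf3 in 24.3% of KO and 15.3% of WT cells and in 42.1% of HFD and 17.8% of NCD cells. Of the 10 other KLF genes listed, 0 were higher and 1 lower in KO cells, and 0 were higher and 5 lower in HFD cells. Over all genes, 1.32% were lower in KO and 9.4% lower in HFD cells. Klf9, a target of steroid hormone receptors in many tissues, was at 25.8 CPM in KO and 42.0 CPM in WT cells (-0.70). Klf6, an early response gene, was at 680 CPM in KO and 884 CPM in WT cells (-0.38), and at 354 CPM in HFD and 844 CPM in NCD cells (-1.25). Klf4, which restrains T cell division, was at 31.6 CPM in HFD and 96.3 CPM in NCD cells (-1.61).

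Tcf7 and Lef1 encode related factors that bind the TCF/LEF letters shown above for Lef1 and Bach2. Tcf7 stood at 52.3 CPM in KO and 33.5 CPM in WT cells (log2 ratio 0.64, 0.48 to 0.81), and at 258 CPM in HFD and 32.0 CPM in NCD cells (3.01, 2.90 to 3.13). Lef1 stood at 84.95 CPM in KO and 67.2 CPM in WT cells (0.34, 0.22 to 0.46), and at 175 CPM in HFD and 62.3 CPM in NCD cells (1.49, 1.40 to 1.59). Both followed the order HFD, KO, WT and NCD, with WT and NCD within counting error, but Tcf7 was set apart more in both comparisons. A Tcf7 UMI was found in 12.3% of KO and 8.02% of WT cells and in 47.3% of HFD and 7.86% of NCD cells. Their partners differed less: of 8 listed cofactors and targets at 5 CPM or more, 0 passed 1.5-fold between KO and WT cells. Beside 12.4% of all genes higher and 9.4% lower, 1 of the 8 was higher and 1 lower in HFD cells. These were the corepressor Tle4, at 86.4 CPM in HFD and 54.5 CPM in NCD cells (0.66), and Axin2, a target of beta-catenin signalling, at 28.1 CPM in HFD and 51.7 CPM in NCD cells (-0.88).

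Satb1 stood at 20.3 CPM in KO and 12.0 CPM in WT cells (log2 ratio 0.75, 0.48 to 1.03), and at 111 CPM in HFD and 14.6 CPM in NCD cells (2.92, 2.75 to 3.09). It was the one gene besides Foxo1 whose 4 conditions were all set apart by counting error, in the order HFD, KO, NCD and WT. Few cells held it, with a UMI in 5.66% of KO, 3.70% of WT, 22.9% of HFD and 4.74% of NCD cells. Bach2 stood at 50.8 CPM in KO and 27.0 CPM in WT cells (0.91, 0.74 to 1.09), the largest KO over WT ratio of the 9, and at 132 CPM in HFD and 28.2 CPM in NCD cells (2.22, 2.10 to 2.35). Among the 9822 genes ordered by the KO over WT ratio, Bach2 was number 65 from the top, and Foxo1 number 874. With cells holding Cd79a, Lyz2 or Cd8a kept, the Bach2 ratio was 0.58 for KO over WT and 1.52 for HFD over NCD. The Satb1 ratio was then 0.55 and 2.67 in the same order. B cell-like droplets held Bach2 at 245 CPM in the Srebf2 pool and 199 CPM in the diet pool.

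Genes known to act against BACH2 or in its place in effector cells did not share a direction. Of 11 listed, 1 was higher and 0 lower in KO cells, and 2 were higher and 4 lower in HFD cells. Over all genes, 1.77% were higher in KO cells, and 12.4% were higher and 9.4% lower in HFD cells. The median log2 ratio of the list was -0.099 for KO over WT and -0.45 for HFD over NCD. Prdm1, which encodes BLIMP1 and is repressed by BACH2 in B and T cells, was at 52.7 CPM in KO and 60.9 CPM in WT cells (-0.21), and at 44.4 CPM in HFD and 60.9 CPM in NCD cells (-0.45). Id2, an inhibitor of E proteins, was at 243 CPM in KO and 283 CPM in WT cells (-0.22), and at 132 CPM in HFD and 311 CPM in NCD cells (-1.24). Bhlhe40, a transcription factor of cytokine-producing T cells, ran with Bach2 instead. It was at 188 CPM in KO and 107 CPM in WT cells (0.82), and at 221 CPM in HFD and 55.4 CPM in NCD cells (2.00).

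Foxo1 differed least among the 8 genes that were higher in HFD cells. It stood at 73.9 CPM in KO and 62.5 CPM in WT cells (log2 ratio 0.24, 0.12 to 0.37), and at 129.7 CPM in HFD and 68.3 CPM in NCD cells (0.92, 0.83 to 1.02). A UMI was found in 23.5% of KO, 20.5% of WT, 35.4% of HFD and 24.7% of NCD cells. Of 15 genes of the FOXO family and of PI3K control, 1 was higher in KO and 2 in HFD cells, and 0 lower in either. Over all genes, 1.77% were higher in KO and 12.4% in HFD cells, so the HFD count lies near the share of all genes. Phlpp1, a phosphatase that acts on AKT, was higher in both, at 42.0 CPM in KO and 24.3 CPM in WT cells (0.79) and at 91.4 CPM in HFD and 22.0 CPM in NCD cells (2.05). Pik3ip1, an inhibitor of PI3K, was at 43.2 CPM in HFD and 19.999 CPM in NCD cells (1.11). Il7r, the interleukin-7 receptor and a known FOXO1 target outside the 9 genes, was at 1021 CPM in KO and 950.4 CPM in WT cells (0.10), and at 749.9 CPM in HFD and 1023 CPM in NCD cells (-0.45).

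**Figure D2:**
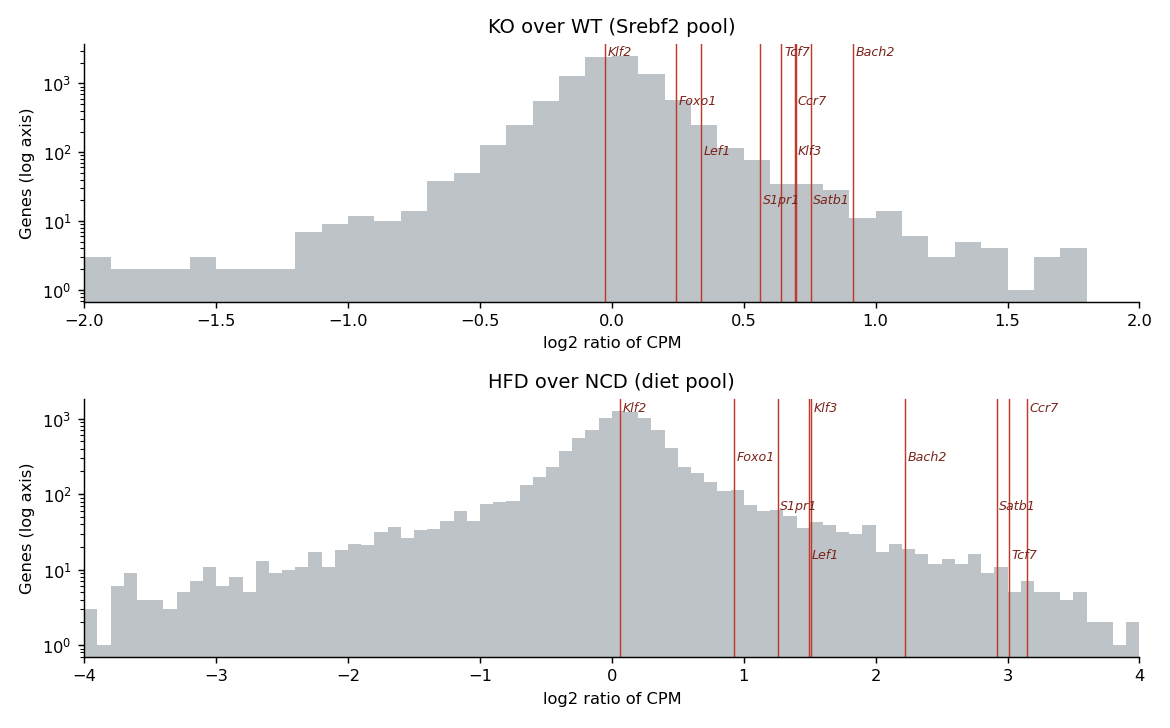
Distribution of the log2 ratio of CPM over all genes that reached 5 CPM in either condition (grey; the y axis counts genes on a log scale), with the 9 genes as red lines, for KO over WT (top, 9822 genes) and HFD over NCD (bottom, 10024 genes). Klf2 lies at the centre of both, at -0.03 and 0.06, and the highest are Bach2 at 0.91 for KO over WT and Ccr7 at 3.15 for HFD over NCD; ratios beyond the axis ends are not drawn.

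The controls of the separate pools were close to each other, although genotype, age range and droplet run differ between them. For all 9 genes NCD and WT levels lay within 1.22-fold, with Satb1 the farthest apart at a log2 ratio of 0.29 (0.01 to 0.57) for NCD over WT. HFD and KO, which do not share a control, were each higher than their own control for 8 genes.

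The share of cells with ST2 also differed between the conditions. An Il1rl1 UMI was found in 58.7% of KO and 71.0% of WT cells, and in 17.6% of HFD and 78.1% of NCD cells. With each cell thinned to 2000 UMIs the shares were 48.4% of KO, 57.9% of WT, 13.7% of HFD and 67.1% of NCD cells. Within each condition, most of the 9 genes were higher in cells with no Il1rl1 UMI (Il1rl1-zero) than in cells with 1 or more (Il1rl1-positive). At 1.5-fold or more this held for 8 of 9 in KO cells (9.74% of all genes tested there), 8 in WT cells (8.99%), 7 in HFD cells (5.68%) and 8 in NCD cells (11.2%). Il1rl1-zero cells were also shallower, with medians of 3166 against 3992 UMIs in KO, 3046 against 3802 in WT, 3091 against 3772 in HFD and 3103 against 4221 in NCD cells. With cells thinned before the split the count was 7 in every condition.

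Tcf7 and Ccr7 were split most sharply by Il1rl1. Tcf7 was at 117 CPM in Il1rl1-zero and 17.3 CPM in Il1rl1-positive KO cells, and at 95.8 CPM and 13.0 CPM in the same order in WT cells. In NCD cells it was at 129.7 CPM in Il1rl1-zero and 12.4 CPM in Il1rl1-positive cells, the widest gap of the 4 conditions at 10.4-fold. In HFD cells the gap was narrower, with 299.6 CPM in Il1rl1-zero and 98.4 CPM in Il1rl1-positive cells (3.04-fold). The Il1rl1-positive cells of HFD mice held Tcf7 at a level near that of Il1rl1-zero cells elsewhere. In thinned HFD cells Tcf7 was at 94.1 CPM with 1 Il1rl1 UMI, 52.8 CPM with 2 and 45.9 CPM with 3 or 4. An Il1rl1 UMI was also found in 36.6% of droplets with B cell markers in the diet pool (median 6495 UMIs). Of droplets with macrophage markers there, 20% held one (median 13127 UMIs). How many Il1rl1-positive HFD cells hold only stray Il1rl1 RNA was not tested. Klf2 was the least split in KO, WT and NCD cells, with log2 ratios of Il1rl1-zero over Il1rl1-positive cells of 0.30 in KO, 0.15 in WT and 0.19 in NCD cells. In HFD cells its ratio was 0.63, above those of Foxo1 (0.49) and Klf3 (0.55).

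**Figure D3:**
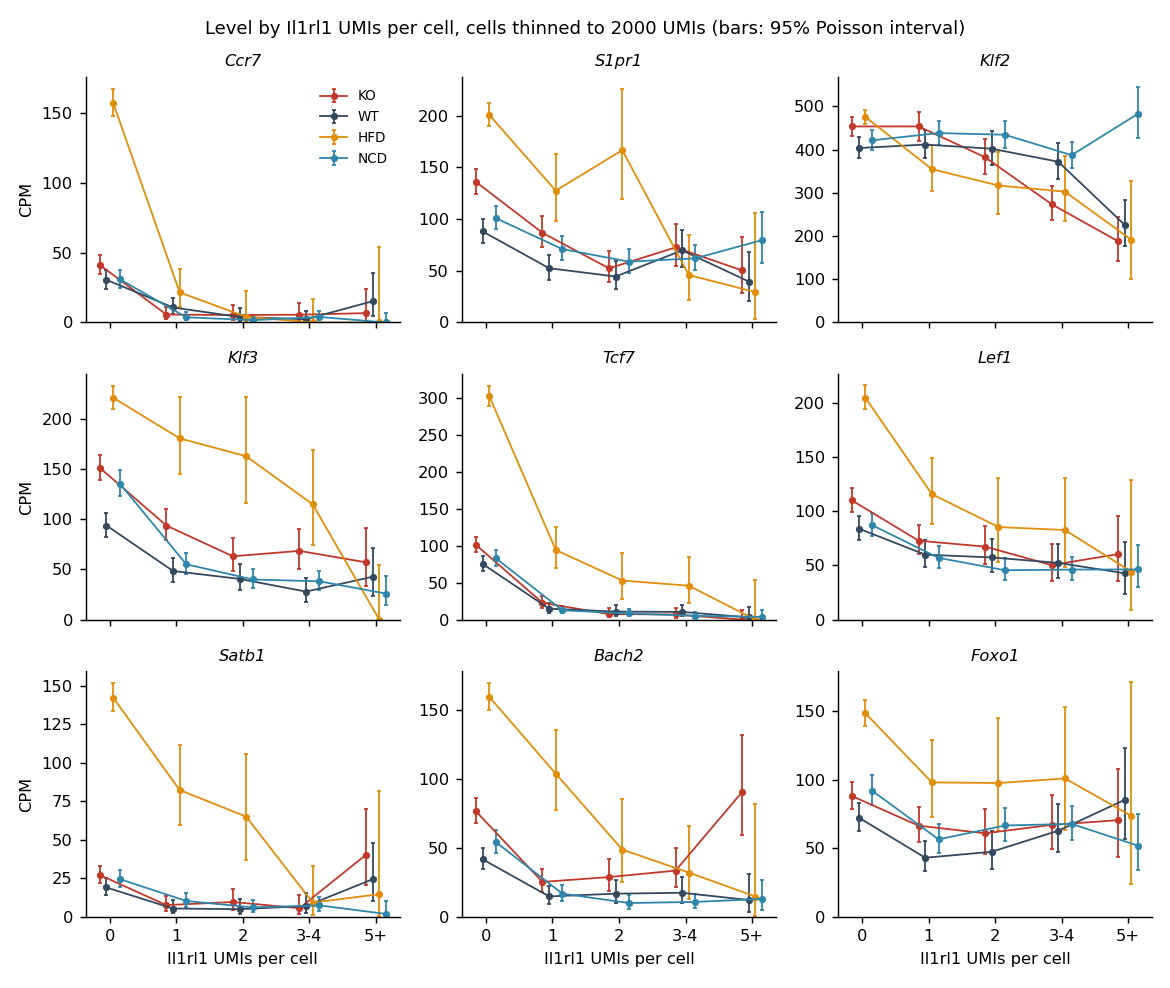
Level of each gene (CPM with 95% Poisson intervals) against the number of Il1rl1 UMIs in the cell, after thinning of each cell to 2000 UMIs, in KO, WT, HFD and NCD cells. Tcf7 was at 302 CPM in HFD cells with 0 Il1rl1 UMIs and at 94.1 CPM in those with 1, and intervals are wide at 5 or more UMIs, where HFD has 34 cells.

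Within Il1rl1-positive cells alone, 8 of 9 genes were still 1.5-fold or more higher in HFD than in NCD cells, beside 12.2% of all genes. Cells with a single, possibly stray, Il1rl1 UMI count as Il1rl1-positive here. In thinned cells with 3 or 4 Il1rl1 UMIs, Tcf7 was at 45.9 CPM in HFD and 5.13 CPM in NCD cells. Within Il1rl1-zero cells 5 of 9 were, beside 7.74%. The differences were larger in Il1rl1-positive cells for Tcf7, at log2 ratios of 2.98 (2.74 to 3.23) in Il1rl1-positive and 1.21 (1.07 to 1.35) in Il1rl1-zero cells, and for Klf3, at 1.61 and 0.25. Bach2 showed the same, at 2.23 in Il1rl1-positive and 0.72 in Il1rl1-zero cells. Klf2 went the other way: it was at 277 CPM in HFD and 373 CPM in NCD cells among Il1rl1-positive cells (-0.43, -0.52 to -0.34), and at 429.8 CPM in HFD and 426 CPM in NCD cells among Il1rl1-zero cells (0.01, -0.07 to 0.09). These gaps between strata exceed counting error but lack a replicate check.

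Between KO and WT, 3 of 9 genes passed 1.5-fold within Il1rl1-positive cells (Klf3, Satb1 and Bach2; 1.75% of all genes) and 1 within Il1rl1-zero cells (Bach2; 3.88%). Bach2 was at 25.6 CPM in KO and 15.2 CPM in WT cells among Il1rl1-positive cells (log2 ratio 0.75, 0.47 to 1.05), and at 97.2 CPM in KO and 62.9 CPM in WT cells among Il1rl1-zero cells (0.63, 0.40 to 0.86). Ccr7 was at 5.35 CPM in KO and 6.16 CPM in WT cells among Il1rl1-positive cells (-0.20, -0.74 to 0.33), and at 56.4 CPM in KO and 39.5 CPM in WT cells among Il1rl1-zero cells (0.51, 0.22 to 0.81). When Il1rl1-positive and Il1rl1-zero cells were weighted to the same shares in both conditions, with 70.0% of UMIs from Il1rl1-positive cells, Bach2 alone stayed past 1.5-fold in KO over WT (0.67), while Ccr7 was at 0.35 and Tcf7 at 0.32. In the diet pool, a share of 51.9% in both conditions left the HFD over NCD ratios between 0.53 (Foxo1) and 1.81 (Satb1) for 8 genes and put Klf2 at -0.19.

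**Figure D4:**
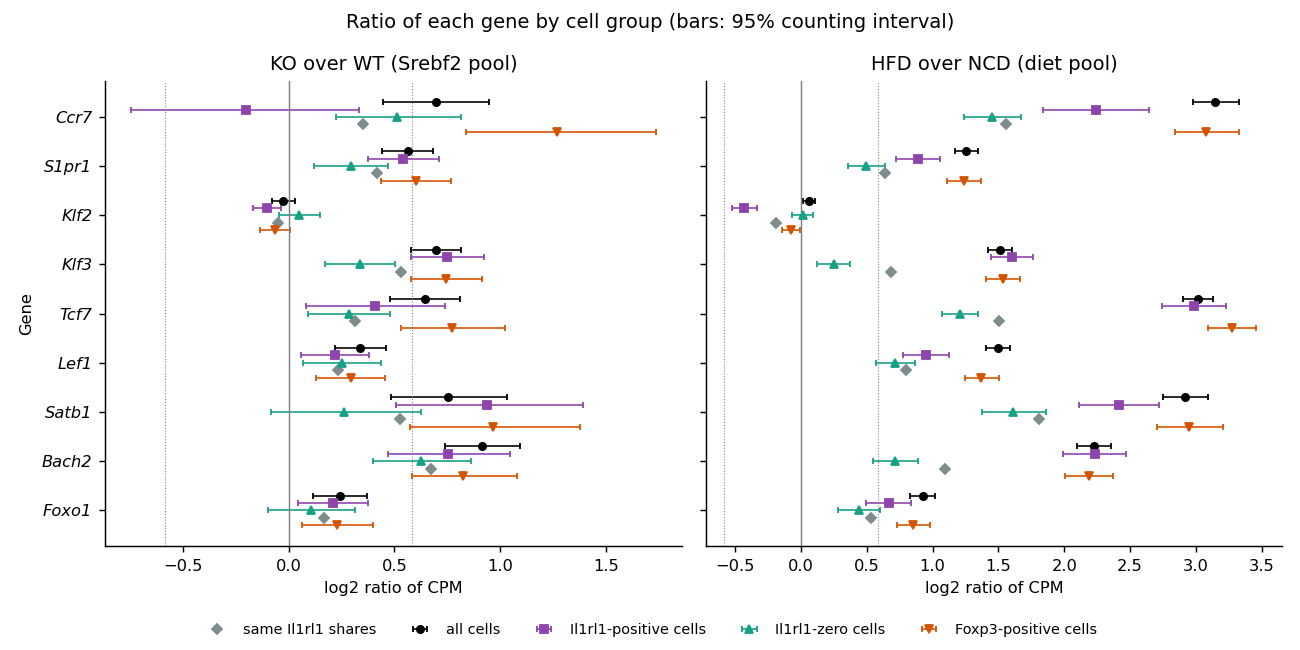
Log2 ratio of CPM of each gene for KO over WT (left) and HFD over NCD (right) in all cells, Il1rl1-positive cells, Il1rl1-zero cells, all cells weighted to the same Il1rl1 shares in both conditions, and Foxp3-positive cells, with 95% counting intervals as bars (none for the weighted values) and dotted lines at 1.5-fold. For HFD over NCD the Il1rl1-positive cells lie to the right of the Il1rl1-zero cells except for Klf2, and Bach2 lies past the dotted line for KO over WT in every cell group drawn.

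The 9 genes are also high in resting conventional CD4 T cells, so they were read again in cells with a Foxp3 UMI. There the median log2 ratio was 0.74 for KO over WT (from -0.06 for Klf2 to 1.27 for Ccr7) and 1.54 for HFD over NCD (from -0.07 for Klf2 to 3.27 for Tcf7). In cells without a Foxp3 UMI it was 0.53 for KO over WT and 1.55 for HFD over NCD. In every condition all 9 genes were higher in cells without a Foxp3 UMI than in cells with one. Ccr7 was at 34.2 CPM without and 16.6 CPM with a Foxp3 UMI in KO cells, and at 25.9 and 6.86 CPM in WT cells. Tcf7 was at 308 CPM without and 210 CPM with a Foxp3 UMI in HFD cells, and at 47.0 and 21.7 CPM in NCD cells. The conventional CD4 list (8 genes, 3 or 4 of them at 5 CPM or more) summed to 284 CPM in KO and 201 CPM in WT cells and to 229 CPM in HFD and 225 CPM in NCD cells, with Il17a at 0 in KO, HFD and NCD cells and Il21 at 0 in NCD cells. Of its genes, Tnfsf8 (CD30 ligand) was at 74.5 CPM in KO and 35.3 CPM in WT cells (1.08) and at 91.4 CPM in HFD and 20.3 CPM in NCD cells (2.17). Csf2, a cytokine of effector T cells, was at 19.9 CPM in KO and 18.6 CPM in WT cells (0.10) and at 1.19 CPM in HFD and 37.7 CPM in NCD cells (-4.96). Ifng and Cd40lg had log2 ratios of 0.55 and 0.30 for KO over WT, and of -0.45 and -0.29 for HFD over NCD. The part of conventional cells in the results was not tested beyond the Foxp3 split.

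Among the other lists, the sum of the stroma list (4 genes) was 10.2 CPM in KO and 2.71 CPM in WT cells, and 62.6 CPM in HFD and 0.901 CPM in NCD cells. The plasma cell list (3 genes) summed to 5.18 CPM in HFD and 60.1 CPM in NCD cells. These sums came from few cells. A UMI of the stroma list was found in 0.355% of HFD and 0.365% of NCD cells. For the plasma cell list the shares were 1.71% of HFD and 1.44% of NCD cells. The dendritic list (6 genes) stayed between 4.91 and 7.06 CPM, the CD8 and NK list (6 genes) between 19.1 and 28.2 CPM and the gamma delta list (3 genes) between 0.991 and 2.16 CPM. The red cell list (3 genes) summed to 72.4 CPM in KO, 386 CPM in WT, 247 CPM in HFD and 73.3 CPM in NCD cells. With every cell that held a UMI of any of these lists left out, the HFD over NCD ratio was 3.31 for Ccr7 and 3.20 for Tcf7, and the KO over WT ratio was 0.84 for Ccr7 and 0.90 for Bach2.

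Genes that respond to tissue dissociation also differed between the diet groups. The list (Fos, Jun, Egr1, heat shock genes and others, 14 genes) summed to 23303 CPM in KO and 26242 CPM in WT cells, and to 8220 CPM in HFD and 23795 CPM in NCD cells. In the cells whose share of these genes lay below the median of their pool, the HFD over NCD ratio was 1.84 for Ccr7, 1.86 for Tcf7, 2.13 for Satb1 and 1.41 for Bach2, and 8 of 9 genes stayed past 1.5-fold. Between KO and WT, Bach2 alone stayed past it in those cells (0.80), and Klf2 stood at 0.33. That median was taken over both conditions of a pool together, so the cells compared were not matched in their share of these genes. The part of dissociation in the results was not tested further.

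The genes were next counted per cell, with each cell thinned to 2000 UMIs. At least 3 of the 9 genes had a UMI in 14.8% of KO (13.7 to 16.04) and 8.07% of WT cells (7.15 to 9.08), and in 41.0% of HFD (39.4 to 42.6) and 8.86% of NCD cells (8.05 to 9.71). None of the 9 was found in 38.4% of KO, 43.1% of WT, 17.0% of HFD and 41.1% of NCD cells. Without Klf2, the shares with 3 or more were 9.05% of KO, 4.05% of WT, 31.9% of HFD and 4.71% of NCD cells, so the order did not rest on Klf2. Thinning left out 311 KO, 307 WT, 711 HFD and 286 NCD cells with fewer than 2000 UMIs.

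**Figure D5:**
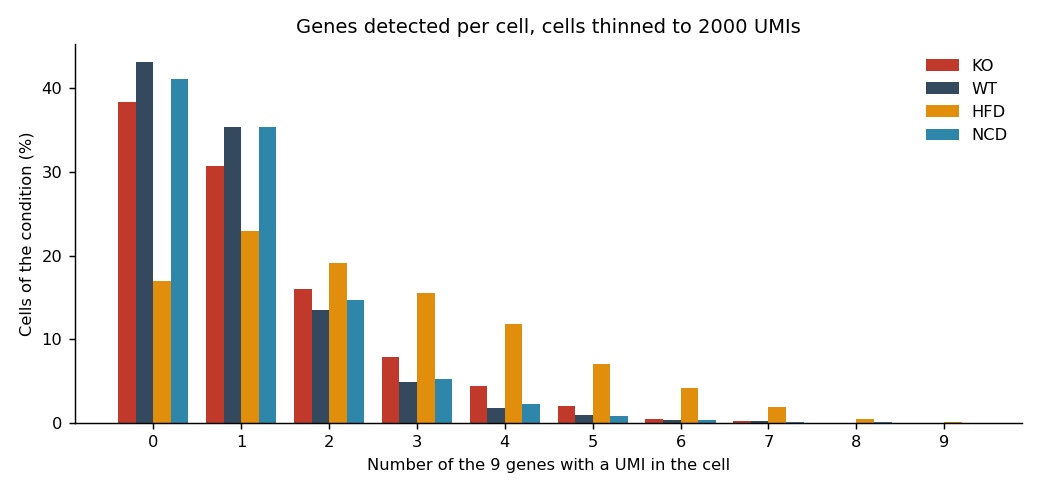
Share of cells (%) by the number of the 9 genes with a UMI, after thinning to 2000 UMIs, for KO, WT, HFD and NCD cells. None of the genes is found in 17.0% of HFD cells against 38.4% to 43.1% in the other conditions, and HFD is the highest condition at each number from 2 to 9.

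The genes tended to lie in the same cells. Of the 36 pairs of genes, 36 were found together in a cell more often than the product of their shares gives in KO, HFD and NCD cells, and 35 in WT cells. Pairs of other genes were not counted, so whether this is particular to these genes was not tested. All of the genes were also higher in Il1rl1-zero than in Il1rl1-positive cells of each condition, and pairs were not counted within those groups. The median of observed over expected was 1.79 in KO, 2.10 in WT, 1.34 in HFD and 2.12 in NCD cells. This ratio has a lower ceiling where the genes are found in more cells, as in HFD, so the medians do not compare the conditions. The strongest pair in KO, WT and HFD cells was Ccr7 with Satb1, seen in 14 KO cells where 2.83 would be expected, in 11 WT cells (1.04 expected) and in 217 HFD cells (94.5 expected). In NCD cells it was Ccr7 with Tcf7, in 29 cells where 3.67 would be expected. Pairs with Klf2 had a median of 1.60 in KO, 1.38 in WT, 1.34 in HFD and 1.44 in NCD cells. Depth was the same for every cell by construction, and the points share cells, so no p-value is given.

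Cells with 3 or more of the 9 genes were compared with cells with none in the same condition. Il1rl1 was lower in them, at 226 CPM against 664 CPM in KO, 368 against 745 CPM in WT, 51.4 against 338 CPM in HFD and 410.2 against 853 CPM in NCD cells. Klrg1, a marker of effector Treg cells, differed in the same way, at log2 ratios of -2.07 in KO, -1.61 in WT, -3.25 in HFD and -1.31 in NCD cells. Of the Treg markers, Il2ra was lower, at -1.55 in KO, -1.25 in WT, -0.76 in HFD and -1.37 in NCD cells. Ctla4 was at -0.21 in KO, -0.50 in WT, -0.49 in HFD and -0.50 in NCD cells. Foxp3 was at -0.45 in KO, -0.51 in WT, -0.54 in HFD and -0.37 in NCD cells, and Ikzf2, the Treg factor Helios, at -0.15 in KO, -0.08 in WT, -0.65 in HFD and 0.20 in NCD cells. Of the few Srebf2 UMIs in KO cells, 11 lay in cells with 3 or more of the genes (10.2 CPM) and 5 in cells with none (1.79 CPM), against 83.7 and 56.1 CPM in WT cells.

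The genes most like the 9 were those with the highest lowest-of-4 log2 ratio between cells with 3 or more of the genes and cells with none, among 5440 genes at 20 CPM or more in every condition. The first 10 were Gm2682, Il6ra, Gramd3, Bcl2, Ripor2, Grap2, Ms4a4b, Crlf3, Pecam1 and Add3. Gm2682, a predicted gene, had ratios of 4.05 in KO, 5.63 in WT, 2.33 in HFD and 4.82 in NCD cells. Il6ra, the interleukin-6 receptor chain, had 2.38 in KO, 2.83 in WT, 2.14 in HFD and 2.02 in NCD cells, and Bcl2, the survival factor, 1.71, 2.05, 1.95 and 2.54 in the same order. At the other end lay Cxcl2, Ier5l, AA467197, Hilpda and Mt1, of which Mt1, a metallothionein, had -3.84 in KO, -2.65 in WT, -4.15 in HFD and -1.74 in NCD cells.

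Other genes of resting and lymphoid T cells were listed as well. Of 20 listed, 4 of 14 at 5 CPM or more were higher in KO cells and 0 lower (median log2 ratio 0.22). In HFD cells 14 of 19 were higher and 1 lower (median 2.23). Over all genes, 1.77% were higher in KO and 12.4% in HFD cells. With a minimum of 20 CPM, 0 of the listed genes were higher in KO cells and 10 in HFD cells. Txk, a T cell tyrosine kinase, was at 15.0 CPM in KO and 8.64 CPM in WT cells (0.79). Igfbp4, which naive T cells express, was at 28.3 CPM in HFD and 2.12 CPM in NCD cells (3.72), and Nsg2 at 47.2 CPM in HFD and 4.55 CPM in NCD cells (3.37). Foxp1, a forkhead factor of T cell quiescence, was at 165 CPM in KO and 156 CPM in WT cells (0.08), and at 265 CPM in HFD and 163 CPM in NCD cells (0.70).

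Genes of ST2-bearing adipose Treg cells ran against the 9 in the diet pool. Of 11 listed, 1 was higher and 9 lower in HFD cells (median -2.52), and 0 of 10 passed 1.5-fold in KO cells (median -0.20). Pparg, the nuclear receptor of adipose Treg cells, was at 101 CPM in KO and 117 CPM in WT cells (-0.22), and at 8.84 CPM in HFD and 71.2 CPM in NCD cells (-3.01). The tissue retention and homing list was mixed, with 5 of 14 higher and 5 lower in HFD cells. In KO cells 2 were higher and 0 lower. Over all genes, 12.4% were higher and 9.4% lower in HFD cells, and 1.77% were higher in KO cells. Ccr2, a receptor for entry into inflamed tissue, was at 91.7 CPM in HFD and 527 CPM in NCD cells (-2.52), and Cxcr6 at 59.4 CPM in HFD and 510.1 CPM in NCD cells (-3.10). Itgae, the CD103 integrin that binds E-cadherin, was at 23.3 CPM in HFD and 3.69 CPM in NCD cells (2.65), and Cxcr3, a receptor of type 1 inflammation, at 126 CPM in KO and 70.4 CPM in WT cells (0.84). Of 7 sphingosine 1-phosphate genes at 5 CPM or more other than S1pr1, 0 passed 1.5-fold in KO cells and Cd69 alone was lower in HFD cells.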

How the data were processed

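The 2 droplet pools were measured with a 5′ chemistry. The deposited values are raw UMI counts per gene and barcode, with hashtag counts as further rows; Cell Ranger 7.0.1 and mm10 are named in the submitters' processing notes, and per the file headers the Srebf2 pool was made with 7.1.0. Cells were kept at 500 or more genes, under 10% mitochondrial counts, 90% or more of hashtag counts from 1 hashtag, and Cd79a, Lyz2 and Cd8a at 0. Droplets with both hashtags fail the purity rule, and no doublet caller was run, so doublets within a condition remain. Counts were summed per condition and given as CPM with 95% Poisson intervals; log2 ratios had 0.5 added to each sum and an exact interval from the binomial split, and shares have Clopper-Pearson intervals. These cover counting error only. Thinning used 2000 UMIs (Python 3.11.15, numpy 2.4.6, scipy 1.17.1), and the interval code was tested on simulated data. The 9 genes and the lists were chosen with earlier results of these data known. Named besides them are up to 4 genes per list with the largest absolute log2 ratio per comparison, Il7r, Foxp1, Foxp3, Il1rl1, Pparg, Prdm1, Id2, Cd69 and the 10 most alike genes; Cxcl2 to Mt1, at the opposite end, Ikzf2 and Srebf2 were added. A gene that this rule names is not reported here. No test was possible with 1 sample per condition.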

Additional observations from a re-analysis of the deposited data

Results flagged for a closer look

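In 3 cases the difference between conditions had opposite signs in Il1rl1-positive and Il1rl1-zero cells. The difference was not tested, since there is 1 sample per condition. For Ccr7, the KO over WT log2 ratio in Il1rl1-positive minus that in Il1rl1-zero cells was -0.71, with a ratio of -0.20 in Il1rl1-positive cells whose counting interval includes 0. For Klf2 it was -0.15 between KO and WT and -0.44 between HFD and NCD. The HFD value comes with a lower Klf2 level in Il1rl1-positive HFD cells (277 CPM) than in Il1rl1-positive NCD cells (373 CPM).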

How the results depend on the processing

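Each of the 18 ratios of the 9 genes was recomputed under 14 alternatives, giving 252 values, of which 193 lay within the interval first reported, 58 outside it, and 1 reversed a ratio past 1.5-fold: Ccr7, KO over WT, was -0.062 with cells holding Cd79a, Lyz2 or Cd8a kept. Klf2, whose ratios lie near 0, was above 0 under 3 of the 14 alternatives for KO over WT and under 10 of 14 for HFD over NCD. The count of 5 genes at 1.5-fold or more higher in KO was 1 with those cells kept and 0 at 2-fold. It was 1 with Il1rl1 strata weighted to the same shares and 1 in cells with a lower dissociation share. With those cells kept the gene left was Tcf7 (0.587), with Bach2 just under the line (0.583). Under the weighting and in cells with a lower dissociation share it was Bach2. The HFD count stayed between 7 and 8. The shares of cells with 3 or more genes were 10.9% in KO, 5.34% in WT, 32.6% in HFD and 6.66% in NCD cells when thinned to 1500 UMIs, and 9.05%, 4.05%, 31.9% and 4.71% in the same order with Klf2 left out. Leaving out Klf2, cells with other lineage markers and cells under 100 hashtag counts were alternatives chosen after seeing the data. No paired analysis was possible because each condition is 1 pooled sample. Spread between mice, sorts and droplet runs cannot be measured here, and the levels of Ccr7 and Satb1 in KO, WT and NCD cells rest on 168 to 384 UMIs.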
